A study of Mus musculus with 9 samples.

Results

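The genes described here encode the proteins that coat lipid droplets and the enzymes that build and break down triglyceride. They were chosen by name as 10 genes of the 55416 in the deposited table. They are the perilipins Plin2, Plin3, Plin4 and Plin5, the lipases Pnpla2, Lipe and Mgll, the acyltransferases Dgat1 and Dgat2, and G0s2, an inhibitor of the PNPLA2 lipase. The muscle sampled was the gastrocnemius of the calf in mice, in 9 RNA libraries, 3 for each of 3 groups. Mice of the AET_MET group were trained on a motorized treadmill and also drank metformin, an oral glucose-lowering drug, at 2 mg/mL. Mice of the AET group had the same treadmill training without the drug. Sessions lasted 60 minutes, with 5 in each of 8 weeks. Mice of the SED group stayed sedentary. The labels give neither strain, sex nor age, and no source used here states feeding state or time of collection. No group with metformin alone was analysed here, so an effect of the drug on training and an effect of the drug itself cannot be told apart. Library names share a code within each group that differs between groups. Anything this code stands for cannot be told apart from the group. The labels number the samples without tying each to its own mouse. The p-values therefore rest on a between-sample spread that may be technical.

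Skeletal muscle fibers store fatty acids as triglyceride in lipid droplets that lie beside mitochondria. DGAT1 and DGAT2 add the last fatty acid to make triglyceride. PNPLA2 (also called ATGL) removes the first fatty acid, hormone-sensitive lipase (the product of Lipe) the next, and monoglyceride lipase (the product of Mgll) the last. Perilipins cover the droplet surface and control how lipases reach it, ABHD5 (CGI-58) activates PNPLA2, and G0S2 and HILPDA inhibit it. Endurance-trained muscle is known for ready turnover of its droplets.

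Libraries held 15434424 to 25355877 expected counts, the estimated read numbers that RSEM gives. The 10 genes had 75 to 17472 counts in a library, and all 10 passed the filter on low counts. Levels are given as CPM, in which each count is divided by its TMM-adjusted library size. Fast-fiber genes marked all libraries as muscle, with Myh4 at a mean of 74200 CPM in AET_MET, 76770 in AET and 75770 in SED. AET_MET replicate 1 had the fewest counts and the lowest mean level of 9 slow and oxidative fiber genes. Of all 13944 genes tested, 47.4% of the calls in AET against SED were rises, and 57.9% with upper-quartile scaling. With library sizes alone, 79.5% of the calls in AET_MET against SED were rises, against 47.3% with TMM, and 79.7% in AET_MET against AET, against 48.3%. Library sizes alone put the median log2 change of all genes at 0.10 when AET_MET was set against SED and at 0.09 when it was set against AET.

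Transcripts of a droplet coat and of the first lipase were lower in trained than in sedentary muscle, with and without metformin. Plin4, a coat protein of adipocytes and muscle, was the most abundant of the 10. It had 297, 286 and 383 CPM in AET, against 732, 769 and 846 CPM in SED. All AET libraries lay below all SED libraries, and the log2 change was -1.28 ± 0.22 (SE, edgeR adjusted p = 0.00839). In AET_MET, Plin4 had 309, 536 and 316 CPM, again below all SED libraries. Its log2 change in AET_MET against SED was -1.02 ± 0.22 (edgeR adjusted p = 0.0387). This call held in only 2 of the 9 fits that leave out 1 library, those without AET replicate 3 and without AET_MET replicate 2. It was also lost with only the 2 groups in the fit, with library sizes alone, with no filter on low counts and with the replicate number as a block (adjusted p 0.000386 to 0.134 over all alternatives). Pnpla2, which encodes the lipase that opens triglyceride breakdown, had 98.6, 94.6 and 116 CPM in AET, against 145, 190 and 187 CPM in SED, and fell by 0.76 ± 0.17 on the log2 scale (edgeR adjusted p = 0.0220). In AET_MET it had 89.2, 112 and 69.4 CPM and fell by 0.95 ± 0.17 against SED (edgeR adjusted p = 0.0183). Both AET_MET and AET were compared with the same SED libraries, so these are not independent results.

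Plin4 lies on chromosome 17 at 56100591 to 56109803 and Pnpla2 on chromosome 7 at 141455198 to 141460743 (GRCm38, GENCODE M21). Exons of Plin4 overlap those of Hdgfl2 on the opposite strand. Hdgfl2 had 315 to 541 counts in a library, and Plin4 had 5012 to 17472. In RefSeq's promoter table (GRCm38.p6), 8 of the 10 genes had a window, from 250 bases before the start of the gene to 50 bases into it. Those of Plin4 and Pnpla2, the genes that changed, are shown with that of Plin2, a coat gene that was called in no comparison. Capitals mark matches on either strand to any of 6 motifs. The motifs were the FOXO site with letters TGTTTAC, the nuclear receptor half-site with letters AGGTCA, the glucocorticoid receptor half-site with letters AGAACA, the E-box with letters CACGTG, the TATA box with letters TATAAA and the CCAAT box with those 5 letters.
Plin4 chr17:56109733-56110032, minus strand: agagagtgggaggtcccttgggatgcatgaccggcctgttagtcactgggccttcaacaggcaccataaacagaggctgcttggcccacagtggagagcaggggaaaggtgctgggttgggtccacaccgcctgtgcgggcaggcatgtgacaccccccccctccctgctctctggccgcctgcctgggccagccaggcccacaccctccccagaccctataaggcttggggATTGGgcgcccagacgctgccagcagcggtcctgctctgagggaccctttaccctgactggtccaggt
Pnpla2 chr7:141454938-141455237, plus strand: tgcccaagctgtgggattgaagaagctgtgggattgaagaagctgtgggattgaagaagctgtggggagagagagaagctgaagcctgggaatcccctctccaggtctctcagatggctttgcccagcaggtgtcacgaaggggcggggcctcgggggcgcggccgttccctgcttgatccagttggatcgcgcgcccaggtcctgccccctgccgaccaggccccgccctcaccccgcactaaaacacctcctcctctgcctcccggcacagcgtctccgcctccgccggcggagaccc
Plin2 chr4:86670010-86670309, minus strand: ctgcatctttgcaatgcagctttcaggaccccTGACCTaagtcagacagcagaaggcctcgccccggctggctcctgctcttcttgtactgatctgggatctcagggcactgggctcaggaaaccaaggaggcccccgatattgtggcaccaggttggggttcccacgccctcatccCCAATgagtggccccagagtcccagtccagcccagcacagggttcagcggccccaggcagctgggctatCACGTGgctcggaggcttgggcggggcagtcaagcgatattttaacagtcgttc
Positions are counted from the annotated start, with -1 the base before it. The Plin4 window held 1 match, a reversed CCAAT box at -18. The Pnpla2 window held no match. The Plin2 window held a reversed nuclear receptor half-site at -218, a CCAAT box at -73 and an E-box at -4. Of all 32851 windows of the same length, 37.4% held the CCAAT box, 16.3% the nuclear receptor half-site, 7.15% the E-box, 3.65% the FOXO site, 19.0% the glucocorticoid receptor half-site and 13.6% the TATA box. No matches overlapped in these 3 windows, and a match describes letters and not a bound site.

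**Figure D1:**
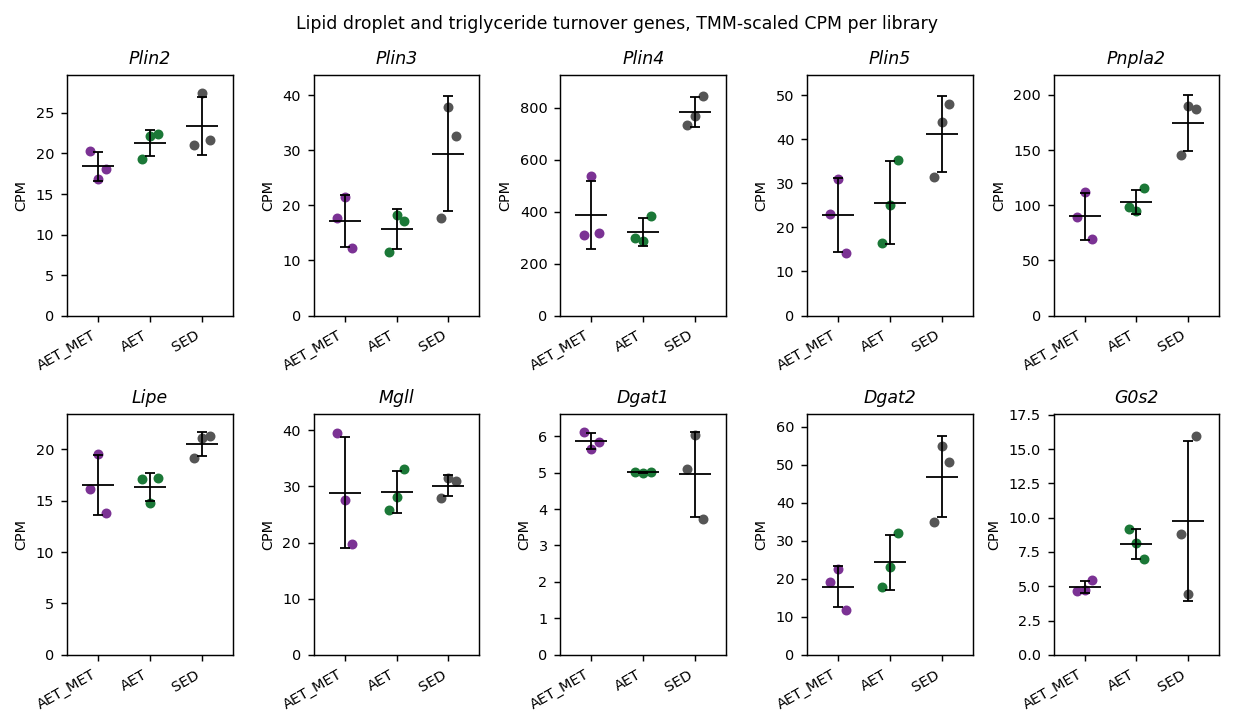
TMM-scaled CPM of the 10 genes in each library (points), with the mean and SD of each group as bars (n = 3), for AET_MET, AET and SED from left to right. The 3 SED libraries lie above all 6 trained libraries for Plin4, Pnpla2 and Dgat2.

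In AET against SED, 2 of the 10 genes fell and none rose, Plin4 and Pnpla2. Over all genes tested 12.3% were called, 6.45% as lower and 5.82% as higher. The median log2 change of the 10 was -0.50, beside 0.01 for all genes, and 9 of the 10 estimates were negative. Libraries of the groups did not overlap for 4 of the 10 genes, against 32.7% of all genes. Leaving out AET replicate 1 ended the Plin4 call at an edgeR adjusted p of 0.0503, the highest over all alternatives (lowest 2.75e-05). Pnpla2 lost its call when AET replicate 1 or 2, or SED replicate 2 or 3, was left out and with no filter on low counts (adjusted p up to 0.0962).

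In AET_MET against SED, Plin4 and Pnpla2 again fell and none rose. Over all genes 4.59% were called, 2.42% as lower and 2.17% as higher. The median log2 change of the 10 was -0.82, beside 0.00 for all genes, and 5 of the 10 did not overlap, against 26.8% of all genes. Pnpla2 lost its call when AET_MET replicate 1 or SED replicate 2 or 3 was left out, with only the 2 groups in the fit and with no filter (adjusted p 4.27e-07 to 0.0760 over all alternatives). With the replicate block 1 of the 10 genes was called in this comparison.

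Metformin during training was compared directly in AET_MET against AET. By edgeR none of the 10 genes was called there and none had an unadjusted p under 0.05. DESeq2 called none either. Of all genes edgeR called 3.43%, 1.77% as lower and 1.66% as higher. The median log2 change of the 10 was -0.09, beside 0.00 for all genes, with 4 positive and 6 negative estimates. The log2 change of Plin4 was 0.27 ± 0.22, and that of Pnpla2 -0.19 ± 0.17. A log2 change of Plin4 of -0.06 was found without AET_MET replicate 2, the library with 536 CPM. Libraries of AET_MET and AET did not overlap for 2 of the 10, Dgat1 and G0s2, against 27.9% of all genes.

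**Figure D2:**
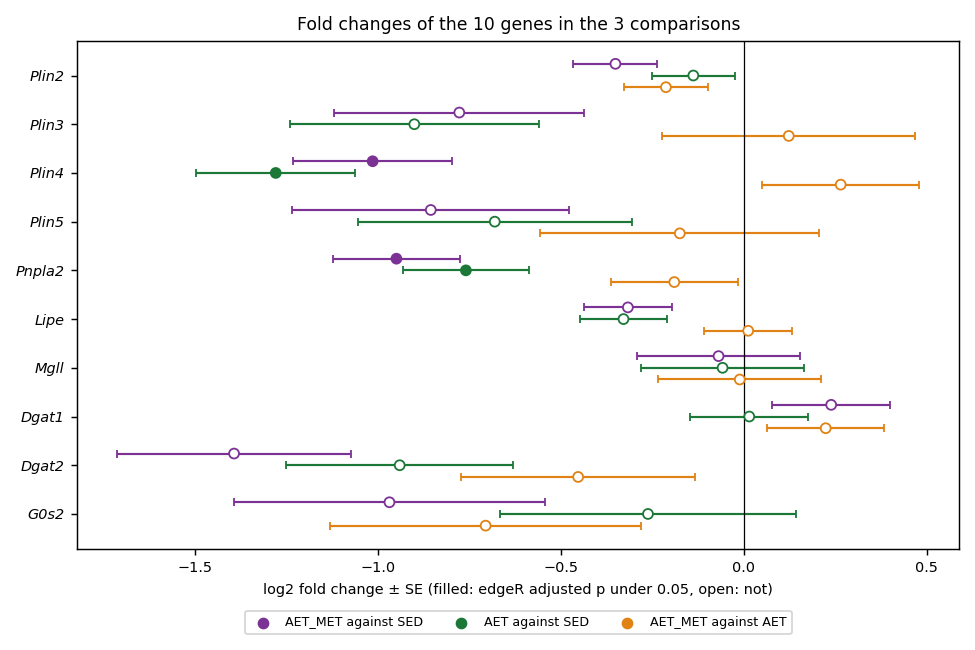
Log2 fold changes ± SE of the 10 genes from the edgeR fit of all 9 libraries, for AET_MET against SED, AET against SED and AET_MET against AET. Filled points are calls at an adjusted p under 0.05, reached by Plin4 and Pnpla2 in both comparisons with SED and by no gene in AET_MET against AET.

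The other 3 perilipins were not called in any comparison by edgeR. Plin5, the coat of oxidative tissues that holds droplets to mitochondria, had 16.4, 25.1 and 35.4 CPM in AET, against 31.5, 44.0 and 48.1 CPM in SED. The groups overlapped, with a log2 change of -0.68 ± 0.37 (edgeR adjusted p = 0.285). In AET_MET, Plin5 had 23.1, 31.1 and 14.2 CPM, all below the lowest SED library, and the log2 change was -0.86 ± 0.38 (edgeR adjusted p = 0.267). Plin5 lies on chromosome 17 at 56111601 to 56117596, 1797 bases beyond Plin4 and on the same strand. Plin3, an exchangeable coat that moves onto droplets from the cytosol, had 11.6, 18.2 and 17.2 CPM in AET, against 17.7, 37.9 and 32.5 CPM in SED. SED replicate 1 was low for Plin3 and lay among the AET libraries. The log2 change was -0.90 ± 0.34 in AET (edgeR adjusted p = 0.138) and -0.78 ± 0.34 in AET_MET against SED. Without SED replicate 1 Plin3 had an adjusted p of 0.0389 in AET against SED, the lowest of a range up to 0.318 with 1 library left out. Plin2, the coat found in most tissues, had the smallest estimates against SED of the 4 coats. It had 20.4, 16.9 and 18.1 CPM in AET_MET, 19.4, 22.1 and 22.4 CPM in AET and 21.1, 27.5 and 21.7 CPM in SED. Its log2 change was -0.14 ± 0.11 in AET and -0.35 ± 0.12 in AET_MET against SED (edgeR adjusted p = 0.455 and 0.104). In AET_MET all libraries lay below those of SED, and Plin2 passed with no filter on low counts (adjusted p 0.0447 to 0.334 over all alternatives).

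Levels of different genes were compared only per length, as CPM per kb of annotated exon. On that scale Plin4 came first, Pnpla2 next and Plin5 after it in each of the 3 groups, and Dgat1 came last. In SED the level of Plin4 was 136 ± 10.02 CPM per kb, of Pnpla2 57.7 ± 8.37 and of Plin5 19.7 ± 4.14 (SD, n = 3). Libraries of these 3 genes did not overlap in any group. After Plin5 the SED order was Dgat2, G0s2, Plin3, Plin2, Mgll, Lipe and Dgat1, and each neighbouring pair from Plin5 to Mgll overlapped. In AET the order after Pnpla2 began with Plin5, G0s2, Dgat2, Plin2 and Mgll, and each neighbouring pair among these overlapped. In AET_MET each neighbouring pair from Plin5 to Lipe did. The 4 coats together summed to 87.7 ± 26.6 CPM per kb in AET_MET, 78.3 ± 14.0 in AET and 170 ± 16.0 in SED. Plin4 took 76.1% ± 4.10 of that sum in AET_MET, 71.5% ± 3.91 in AET and 80.0% ± 2.89 in SED. The share of Plin5 was 12.4% ± 2.51, 15.4% ± 3.36 and 11.6% ± 1.44 in the same groups, and that of Plin2 6.38% ± 2.02, 7.85% ± 0.988 and 3.95% ± 0.601. The Plin2 share was 6.75% to 8.67% in AET libraries and 3.35% to 4.55% in SED libraries, while its own level overlapped between these groups.

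**Figure D3:**
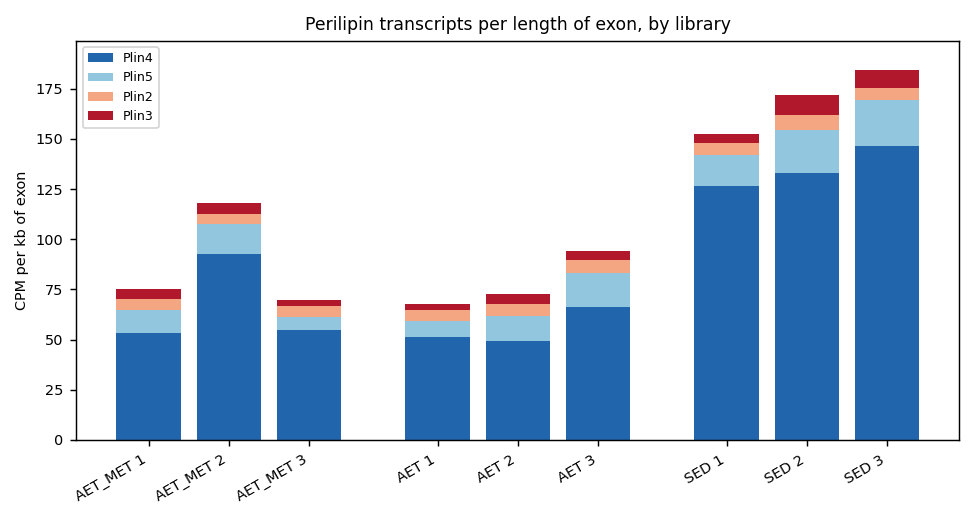
Stacked CPM per kb of exon of Plin4, Plin5, Plin2 and Plin3 in each library of AET_MET, AET and SED. Plin4 makes up most of each bar, and the bars of SED, 153 to 184, stand above those of the trained libraries, 67.9 to 118.

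Of the enzymes that make triglyceride, Dgat2 had the largest negative estimate of the 10 in AET_MET against SED. Dgat2 had 19.3, 22.5 and 11.9 CPM in AET_MET, 17.9, 23.2 and 32.2 CPM in AET and 34.9, 55.1 and 50.9 CPM in SED. All trained libraries lay below all SED libraries, a pattern shown by 3 of the 10 genes and 6.35% of all genes. The log2 change was -1.39 ± 0.32 in AET_MET and -0.94 ± 0.31 in AET against SED, and neither passed with edgeR (adjusted p = 0.0603 and 0.0992). DESeq2 called both (adjusted p = 0.000784 and 0.0309), and edgeR called the AET_MET comparison with a filter of at least 5 CPM in 3 libraries. Over all alternatives the adjusted p ran up to 0.160 in AET_MET and 0.238 in AET against SED. Dgat1, which makes triglyceride in the endoplasmic reticulum, had 6.11, 5.65 and 5.84 CPM in AET_MET, 5.01, 5.00 and 5.03 CPM in AET and 5.10, 6.03 and 3.71 CPM in SED. Its log2 change was 0.24 ± 0.16 in AET_MET and 0.02 ± 0.16 in AET against SED, not called in either.

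The log2 ratio of Dgat2 to Dgat1 within a library does not depend on scaling. It was 1.56 ± 0.49 in AET_MET, 2.24 ± 0.42 in AET and 3.25 ± 0.50 in SED (SD, n = 3). The difference was -1.69 for AET_MET and -1.004 for AET against SED, each with an exact two-sided permutation p of 0.1, the smallest that 3 against 3 libraries allow, and 0.3 after adjustment over the 6 ratio comparisons. The ratio of G0s2 to Pnpla2, inhibitor to lipase, was -4.17 ± 0.46 in AET_MET, -3.67 ± 0.33 in AET and -4.34 ± 0.98 in SED. Its difference was 0.67 in AET against SED and 0.17 in AET_MET against SED (exact permutation p = 0.3 and 0.9). In AET_MET against AET the difference was -0.50 for this ratio and -0.68 for Dgat2 to Dgat1 (exact permutation p = 0.2 for each).

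G0s2 itself had 4.63, 4.72 and 5.48 CPM in AET_MET, 9.16, 8.16 and 6.98 CPM in AET and 8.84, 4.40 and 16.0 CPM in SED. The SED libraries spanned all other libraries. Its log2 change was -0.97 ± 0.42 for AET_MET against SED and -0.71 ± 0.43 for AET_MET against AET (edgeR adjusted p = 0.254 and 0.383). The comparison with AET passed with only its 6 libraries in the fit (adjusted p = 0.0285) and in no other alternative, with values up to 0.632. The comparison with SED passed with DESeq2 (adjusted p = 0.0387) and without SED replicate 2 (0.0290), and otherwise ran up to 0.478. G0s2 had a log2 change of -0.26 ± 0.40 in AET against SED, which turned to 0.29 without SED replicate 3.

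The later lipases had smaller estimates against SED than Pnpla2 and were not called. Lipe had 16.1, 19.6 and 13.8 CPM in AET_MET, 17.1, 14.8 and 17.2 CPM in AET and 19.2, 21.1 and 21.3 CPM in SED. All AET libraries lay below all SED libraries, and 1 AET_MET library lay among those of SED. The log2 change of Lipe was -0.33 ± 0.12 in AET and -0.32 ± 0.12 in AET_MET against SED (edgeR adjusted p = 0.0910 and 0.156). Lipe passed in AET with no filter on low counts (0.0458, up to 0.245 otherwise) and in AET_MET without AET_MET replicate 2 (0.0374, up to 0.437 otherwise). Mgll had 39.5, 27.6 and 19.7 CPM in AET_MET, 25.7, 28.1 and 33.0 CPM in AET and 28.0, 31.6 and 30.9 CPM in SED. The groups overlapped throughout, and its log2 changes lay between -0.07 and -0.01. Its AET_MET estimates against both other groups turned positive with library sizes alone.

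Other genes of triglyceride synthesis, droplet assembly and lipolysis were taken from lists of 17, 15 and 20 genes, of which 15, 13 and 18 were tested. Of the synthesis genes 2 fell in AET against SED, and the same 2 fell in AET_MET against SED. Over all genes tested 6.45% and 2.42% were called lower in these comparisons. Lpin1, encoding a phosphatidate phosphatase that makes the diglyceride used by DGAT enzymes, had 353, 336 and 334 CPM in AET, against 694, 723 and 550 CPM in SED (log2 change -0.94 ± 0.11, edgeR adjusted p = 0.000270). In AET_MET it had 443, 515 and 470 CPM, between the other groups without overlap with either. Lpin1 was lower by a log2 change of -0.46 ± 0.10 against SED and higher by 0.48 ± 0.10 against AET (edgeR adjusted p = 0.0269 and 0.0294). The call against SED was lost without AET_MET replicate 1 or 3 or SED replicate 1 or 2 and with library sizes alone (adjusted p up to 0.126 over all alternatives). The call against AET was lost when any 1 of the 6 trained libraries was left out (adjusted p up to 0.118).

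Gpat3, encoding an acyltransferase that starts glycerolipid synthesis, had 4.68, 5.04 and 6.57 CPM in AET, against 11.9, 12.9 and 14.7 CPM in SED. Gpat3 changed by a log2 value of -1.27 ± 0.16 in AET and -1.35 ± 0.16 in AET_MET against SED (edgeR adjusted p = 0.000439 and 0.00155). Both calls held in all 9 fits without 1 library and in all 8 other alternatives. The other 13 synthesis genes tested were called in no comparison, among them Gpam, which encodes the mitochondrial acyltransferase of the same step. Gpam had a mean of 219 CPM in AET_MET, 247 in AET and 250 in SED. The list's median log2 change was 0.08 for AET_MET against AET, 0.02 for AET_MET against SED and -0.08 for AET against SED.

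Of the 13 droplet assembly and surface genes tested, 2 rose in AET against SED and 1 rose in AET_MET against SED. Over all genes tested 5.82% and 2.17% were called higher in these comparisons. Rnf213, encoding a large ubiquitin ligase found on droplets in cultured human cells, had 48.9, 43.4 and 46.6 CPM in AET, against 27.6, 28.9 and 26.4 CPM in SED. Rnf213 rose by a log2 value of 0.74 ± 0.09 in AET and 0.55 ± 0.09 in AET_MET against SED (edgeR adjusted p = 0.000476 and 0.00765), called in all alternatives. Rab18, a small GTPase of the droplet surface, rose by 0.24 ± 0.07 in AET against SED at an adjusted p of 0.0499. That call held in 1 of the 9 fits without 1 library (that without AET replicate 2) and in 3 of the 8 other alternatives (edgeR or DESeq2 adjusted p up to 0.140). In AET_MET against AET, Hsd17b11, encoding a droplet-bound dehydrogenase, was lower at 2.41, 2.87 and 3.01 CPM in AET_MET, against 5.82, 3.90 and 4.38 CPM in AET. Its log2 change was -0.75 ± 0.18 (edgeR adjusted p = 0.0379), a call kept in 2 of the 9 fits without 1 library and lost with the replicate block and with 2 groups in the fit (adjusted p up to 0.114). Hilpda, encoding an inhibitor of PNPLA2, averaged 1.03 ± 0.24 CPM in AET_MET, 1.03 ± 0.33 in AET and 1.34 ± 0.05 in SED and was not called. The list's median log2 change was -0.02 for AET_MET against AET, -0.10 for AET_MET against SED and -0.06 for AET against SED.

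Of the 18 lipolysis and signalling genes tested, 3 fell in AET against SED and 1 fell in AET_MET against SED, with none higher. Over all genes tested 6.45% and 2.42% were called lower there. Pnpla7, encoding a lysophospholipase of the same protein family as PNPLA2, had 38.7, 34.7 and 41.2 CPM in AET, against 54.4, 56.9 and 54.9 CPM in SED. Pnpla7 had a log2 change of -0.54 ± 0.09 in AET and -0.42 ± 0.09 in AET_MET against SED (edgeR adjusted p = 0.00368 and 0.0269). The call in AET_MET was lost without AET_MET replicate 1, without any 1 of the SED libraries and with library sizes alone (adjusted p up to 0.115). Pnpla8, encoding a phospholipase of mitochondria and peroxisomes, fell by 0.35 ± 0.07 in AET against SED, and Pde4d, which encodes a phosphodiesterase that breaks down cyclic AMP, by 0.61 ± 0.10 (edgeR adjusted p = 0.00845 and 0.00309). Abhd5, the activator of PNPLA2, was not called, at 32.3 ± 0.33 CPM in AET_MET, 28.4 ± 2.53 in AET and 29.3 ± 1.38 in SED (SD, n = 3). The log2 change of Abhd5 against SED was -0.05 ± 0.08 in AET and 0.14 ± 0.08 in AET_MET, and Pnpla2 fell in both. All AET_MET libraries lay above all SED and AET libraries for Abhd5. Neither difference was called (edgeR adjusted p = 0.352 against SED and 0.209 against AET). The list's median log2 change was 0.02 for AET_MET against AET, -0.05 for AET_MET against SED and -0.05 for AET against SED.

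**Figure D4:**
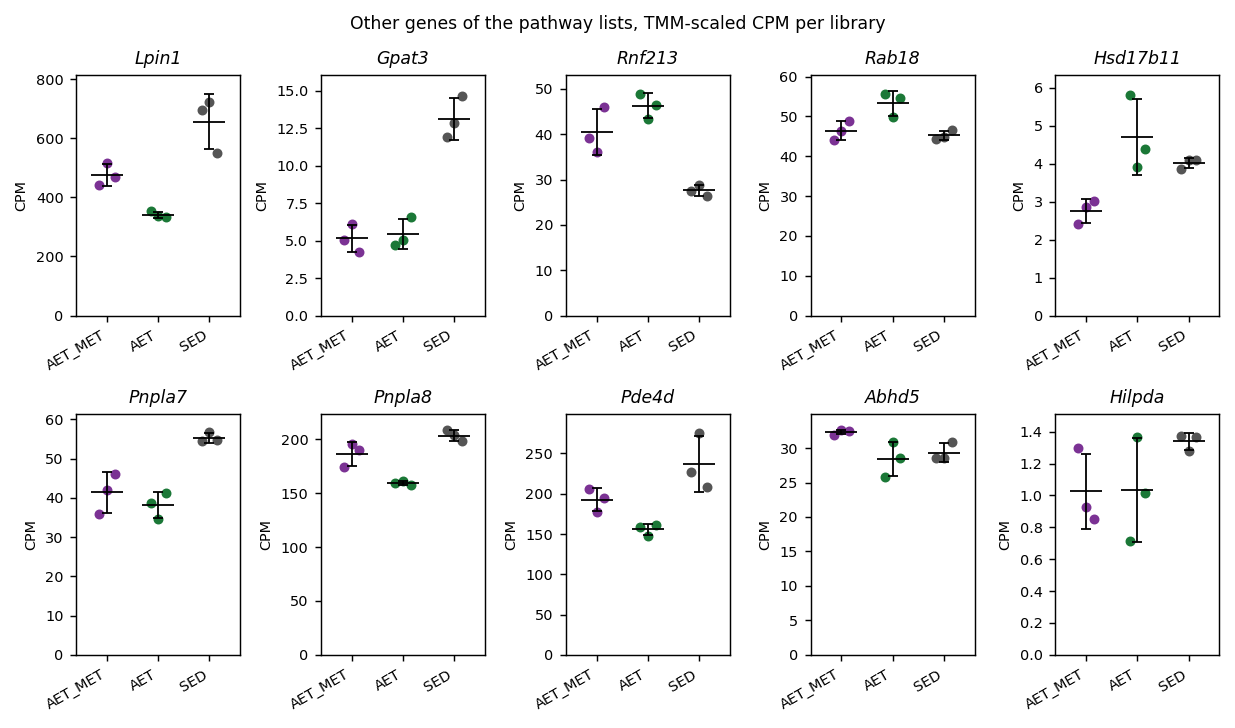
TMM-scaled CPM of 10 other pathway genes in each library (points), with group means and SD (n = 3), for AET_MET, AET and SED from left to right. Lpin1 lies between 443 and 515 CPM in AET_MET, above AET and below SED, and Gpat3 lies below 7 CPM in all trained libraries.

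Several of the 10 genes are also strongly expressed in fat cells, and muscle pieces can hold other cells. In bulk RNA, fewer cells of a type and less RNA per cell cannot be told apart. Of 12 adipocyte markers 10 were tested and none was called in any comparison, with edgeR adjusted p of 0.127 or more. Adipoq, which encodes the fat cell hormone adiponectin, had 3.15 to 13.0 CPM in AET_MET, 5.19 to 9.64 in AET and 2.44 to 8.13 in SED, so no library lacked it. The markers summed to 135 to 260 CPM in AET_MET, 178 to 216 in AET and 145 to 176 in SED. Fabp4 alone supplied most of the mean sum, at 104 CPM in AET_MET, 117.9 in AET and 116.5 in SED. Estimates were positive for 9 of the 10 in AET against SED (median log2 change 0.49) and for 8 of the 10 in AET_MET against SED (0.66). Plin1, the fat cell perilipin, was among them at 1.54 to 6.85 CPM in AET_MET, 3.12 to 5.44 in AET and 0.586 to 2.88 in SED. Leptin and Adrb3 were at 0 in some libraries. AET_MET replicate 2, the library highest for Plin4 in its group, also had the highest adipocyte sum of all libraries.

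The 9 slow and oxidative fiber genes were all tested and none was called, and their sum was 1166 to 2324 CPM in AET_MET, 2418 to 4749 in AET and 2468 to 3784 in SED. Most of the mean sum came from Myh2, at 1310 CPM in AET_MET, 2603 in AET and 2333 in SED. Myh7 had 2.28, 265 and 99.3 CPM in AET_MET replicates 1 to 3, against 253 to 323 in SED. Estimates were positive for 1 of the 9 in AET against SED (median log2 change -0.39) and for 0 of the 9 when AET_MET was set against SED (-1.24) or against AET (-0.86). Their mean level was 5.05 ± 1.69 log2 CPM in AET_MET, 6.32 ± 0.98 in AET and 6.96 ± 0.13 in SED (SD, n = 3). After group means were removed, Plin4 followed this level with r = 0.85 over the 9 libraries, Lipe with 0.49, Pnpla2 with 0.46, Plin5 with 0.42 and Dgat2 with 0.35. Plin3 gave 0.22, G0s2 and Dgat1 -0.10 each, Plin2 -0.29 and Mgll -0.32. The mean level of 8 endothelial genes gave r of 0.84 for Lipe and Pnpla2, 0.79 for Plin4, 0.76 for Plin5 and 0.70 for Dgat2. That endothelial level gave 0.55 for Plin3, 0.46 for Mgll, 0.33 for G0s2, -0.29 for Plin2 and -0.57 for Dgat1. Of 10 fast fiber and general muscle genes Acta1, which encodes skeletal actin, fell in AET against SED (log2 change -0.38 ± 0.10, edgeR adjusted p = 0.0295) and no other was called. Their mean level gave r of 0.65 for Plin5, 0.51 for Dgat2, 0.34 for Plin4, 0.31 for Pnpla2 and -0.69 for Dgat1. For Plin2, Plin3, Lipe, Mgll and G0s2 r lay between -0.03 and 0.50. This list includes Mb, encoding myoglobin, and Myh1, at 987 ± 246 and 3340 ± 1636 CPM in AET_MET. Myh4 was steadier there, at 74200 ± 6614 CPM (SD, n = 3). Of the droplet and triglyceride genes only Plin5 ranked its libraries as the summed slow-fiber genes did in all 3 groups. Myh2, which made up most of that sum, ranked them the same way. By the mean log2 level of the same 9 genes, the order of the libraries differed from that of Plin5 in each of the 3 groups. The endothelial gene Kdr rose in AET against SED and Cldn5 fell there. Cldn5 also fell in AET_MET against SED, and Kdr was lower in AET_MET than in AET. The adipocyte level gave r of 0.49 for Plin4, 0.33 for Lipe, 0.14 for G0s2, 0.02 for Pnpla2 and -0.09 for Dgat1. It gave -0.20 for Plin5, -0.295 for Dgat2, -0.375 for Plin3, -0.585 for Mgll and -0.78 for Plin2. Macrophage and blood cell lists, of 8 and 5 genes, held no called gene, and r with these 10 genes lay between -0.48 and 0.42. These correlations share libraries and scaling and describe them only. The part of fiber type or of other cells in the lower Plin4 and Pnpla2 was not tested.

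**Figure D5:**
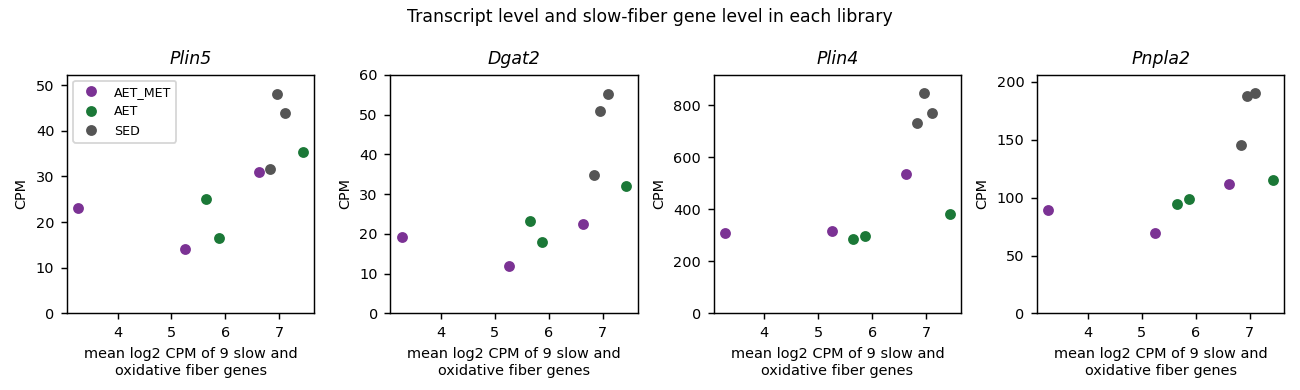
CPM of Plin5, Dgat2, Plin4 and Pnpla2 (vertical axes, from 0) against the mean log2 CPM of 9 slow and oxidative fiber genes (horizontal axes) in each library of AET_MET, AET and SED. On the horizontal axis AET_MET libraries lie between 3.27 and 6.62, AET between 5.65 and 7.44 and SED between 6.83 and 7.10, and the AET library at 7.44 lies below all SED libraries for Dgat2, Plin4 and Pnpla2 and above the lowest SED library for Plin5.

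The genes whose log2 CPM ran most like that of 4 of the 10 genes were sought among 8119 genes with a mean of at least 5 CPM. Over the 9 libraries, Plin5 ran closest to Myl12a, encoding a myosin regulatory light chain (r = 0.978), Cd36, encoding a fatty acid transporter (0.975), Pfkfb1 (0.974), Slc25a22 (0.964) and Gsto1 (0.959). After group means were removed, r with these genes was 0.940 to 0.972. Cd36 averaged 304 ± 64.9 CPM in AET_MET, 316 ± 59.4 in AET and 442 ± 30.5 in SED (SD, n = 3). Pnpla2 ran closest to Gabarapl1, a gene of autophagosome formation (0.980), Efnb1 (0.977), Midn (0.970) and Aifm2 (0.967), with 0.855 to 0.941 within groups. Gabarapl1 averaged 44.2 ± 8.74 CPM in AET_MET, 50.5 ± 7.57 in AET and 98.0 ± 14.2 in SED. For Plin2 the closest were Tubb6 (0.944), Col5a2 (0.915), Prrc1 (0.905), Rundc1 (0.904) and Gfra1 (0.903), and for G0s2 Fau (0.870), Itpr2 (0.862), Herc1 (0.861), Fkbp3 (0.848) and C1qtnf9 (0.845). Within groups r was 0.786 to 0.918 for the genes closest to Plin2 and 0.768 to 0.849 for those closest to G0s2. All these genes were picked for a high r in the same libraries, so the values within groups are not separate evidence. These r share libraries and scaling and are a description.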

How the data were processed

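Gene expression was measured in 9 gastrocnemius libraries. The authors' table gives each gene's expected count from RSEM, an estimated read number that, from its values, was not normalized between libraries. The submitters' processing notes name the tools STAR 2.5.3a, RSEM 1.3.0 and edgeR 3.34.0 and the genome GRCm38, with no order or use. No source used here gives the annotation release or strand setting. Antisense reads cannot be told apart from a gene's own.

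All values were rounded, since 4.85% to 5.53% in each library had decimals. GENCODE M21 gave symbols to 52083 of 55416 identifiers. The main test was the robust quasi-likelihood one of edgeR 4.0.16 (R 4.3.3), in 1 fit of all 9 libraries, after TMM scaling and filterByExpr. Calls are Benjamini-Hochberg adjusted p under 0.05 over 13944 genes. An SE is the log2 change divided by the root of the F statistic. The fit was tested on simulated data. Alternatives were 8 other settings, among them DESeq2 1.42.0, and 9 fits that left out 1 library each. Libraries of a group differed by a chi-square per degree of freedom of at least 16.2, so none was merged. Within a library, ratios were tested by exact permutation in scipy 1.17.1. Lengths are the union of GENCODE exons. Ldaf1 and Spart were matched by the older symbols Tmem159 and Spg20.

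The 10 genes, the lists and the rules were chosen with earlier results of these data known. Named genes are all 10, up to 4 called genes per pathway list and comparison by smallest p, Abhd5 and Hilpda, and the 5 genes with the highest r for each of 4 of the 10. Of these, 1 gene is not reported here. Gpam and the markers of other cell types were named after their values were seen.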

Additional observations from a re-analysis of the deposited data

How the results depend on the processing

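Both falls in AET against SED kept their call under the 8 other settings, except Pnpla2 with no filter. With 1 library left out, 0 to 3 of the 10 genes were called there, and 934 to 1508 of all genes against 1711. In AET_MET against SED, the 2 calls became 4 with DESeq2, 3 with the filter of at least 5 CPM in 3 libraries, 0 with only the 2 groups in the fit, 1 with library sizes alone, 1 with no filter, 1 with the replicate block and 0 to 3 with 1 library left out. All genes called there numbered 142 to 654 with 1 library left out, against 640. In AET_MET against AET, 1 of the 10 was called with only the 2 groups in the fit and 0 with any 1 library left out. All genes called there numbered 478, 876 with DESeq2, 767 with library sizes alone, 734 with no filter and 23 to 461 with 1 library left out.

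Deviations of same-numbered libraries from their group means correlated at -0.051 to 0.184 over 9 pairs. Pairs with unlike numbers gave -0.172 to 0.141. Each AET library correlated best with the SED library of its own number (0.0834, 0.0265 and 0.1101). In the comparisons with AET_MET not every library did. Such small correlations cannot decide whether the numbers pair the samples. With the replicate block 1530, 535 and 358 genes were called in AET against SED, AET_MET against SED and AET_MET against AET.

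Some estimates changed sign, none of them called, and not all lay near 0. With all libraries, Plin4 stood at 0.265 in AET_MET against AET and G0s2 at -0.262 in AET against SED. With library sizes alone, Mgll turned to 0.035 in AET_MET against SED and to 0.082 in AET_MET against AET, Hilpda to 0.039 and Gpat3 to 0.011 in AET_MET against AET. Lipe turned to -0.008 in AET_MET against AET with the 5 CPM filter. With 1 library left out, these ranges crossed 0. In AET against SED they were -0.165 to 0.014 for Mgll, -0.154 to 0.182 for Dgat1, -0.619 to 0.291 for G0s2 and -0.109 to 0.015 for Abhd5. In AET_MET against SED they were -0.353 to 0.139 for Mgll and -0.009 to 0.072 for Rab18. In AET_MET against AET they were -0.092 to 0.315 for Plin3, -0.056 to 0.41 for Plin4, -0.487 to 0.129 for Plin5, -0.146 to 0.123 for Lipe, -0.292 to 0.200 for Mgll, -0.232 to 0.222 for Hilpda and -0.241 to 0.083 for Gpat3. The cause was not tested. G0s2 had the largest SE of the 10 in each comparison, 0.404 to 0.425. The lowest count in a library was 75 for G0s2, in AET_MET replicate 1, and 76 for Dgat1, in SED replicate 3.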
